A study of Homo sapiens with 2 samples.

Results

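Of 8 genes that are widely cited as splicing targets of SRSF1, 7 held no crosslink site in the SRSF1 HITS-CLIP list from H1299 cells, and the other, BCL2L11, held 1. The genes were MKNK2, RPS6KB1, BIN1, BCL2L11, BCL2L1, MCL1, CASP9 and SLC39A14. They were chosen by name, and a listed site counted as theirs when its midpoint and strand fell in a window drawn around the gene on hg19. The rule found 1 of the 6754 listed sites. Among stretches of 1 strand as long as these windows, laid end to end along the nuclear chromosomes, 0.432% to 4.31% held a listed site. Those stretches cover sequence with and without genes, so they do not show whether 1 gene of 8 is a low count. Sites at most 1000 nt apart, joined into loci, numbered 26.1 per 100 protein-coding genes over the nuclear chromosomes. That number counts loci on either strand, inside coding genes or not. For these 8 genes, counting only gene-strand loci inside the windows, the number was 12.5 per 100. The measures are unlike, and the difference was not tested. The share over all genes was not computed, and nothing particular to these genes is read from the 7 without a site. MKNK2, RPS6KB1, BIN1, BCL2L1, MCL1, CASP9 and SLC39A14 are therefore genes without a listed site.

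H1299 is a human cell line from a lung cancer of the non-small cell type. The study had 2 samples, numbered as replicates 1 and 2 of 1 group of cells crosslinked with ultraviolet light, with no control library, treatment or second genotype named in the labels. HITS-CLIP isolates the RNA fragments (tags) that light has bonded to a protein in living cells. A listed site is either a truncation site, where reverse transcription stopped in several tags, or a mutation site, where at least 2 tags carry a mutation. The type of mutation was not analysed here. The authors combined both replicates in 1 list without a column for either, so the values below describe that list and have no replicate spread and no test between samples. The list held 4731 truncation sites and 2023 mutation sites. How many tags each library held is not known from the list, and it shows only positions that passed the authors' calling, so a gene without a site was not shown to lack bound SRSF1. The expression of these genes in H1299 cells was not analysed here.

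SRSF1 is an SR protein: it binds purine-rich RNA, often inside exons, and helps the splicing machinery choose splice sites. It is known as an oncoprotein, and much of what is cited for that role concerns the splicing of kinases and of apoptosis regulators. MKNK2 encodes a kinase that phosphorylates the translation initiation factor eIF4E, and RPS6KB1 encodes the ribosomal protein S6 kinase downstream of mTOR. BIN1 encodes a membrane-curving adaptor that is regarded as a tumour suppressor. BCL2L11 (BIM), BCL2L1 (BCL-X) and MCL1 belong to the BCL-2 family, which controls the release of cytochrome c from mitochondria; BIM promotes cell death, while BCL-X and MCL1 are made in forms that block it and shorter forms that promote it. CASP9 encodes the initiator caspase of the mitochondrial pathway, and SLC39A14 encodes a zinc, iron and manganese transporter.

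The windows matched the genes they were named for in chromosome and strand, and closely in length. Their start and end positions were not checked, since no hg19 gene models were used. All 8 lay on the chromosome and strand that GENCODE v29 gives for the gene. Their lengths were 98.3% (BCL2L1) to 105% (MCL1) of the gene's length in RefSeq. They ran from 5301 nt for MCL1 to 67001 nt for SLC39A14 and added up to 342.7 kb.

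The 1 site of BCL2L11 was a mutation site on the plus strand of chromosome 2, at positions 111880186 to 111880206 (hg19, 21 nt). It lay 1796 nt from the 5′ end of the window, or 3.77% of the way along the 47701 nt of the window. It was covered by 2 tags, and both were mutated. These are the smallest numbers of covering and of mutated tags that any mutation site in the list had. Over all mutation sites, the median of covering tags was 5 and, taken separately, the median of mutated tags was 2. The deepest site was covered by 503. Mutation sites with 2 covering tags, both mutated, numbered 462 of 2023 (22.8%), so the BCL2L11 site belonged to a common class of the list and to its shallowest. Of all mutation sites, 31.6% had more mutated tags than the median; the BCL2L11 site did not. The source of its mutation was not tested. The exon or intron that holds the site is not given, since no hg19 gene models were used.

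**Figure D1:**
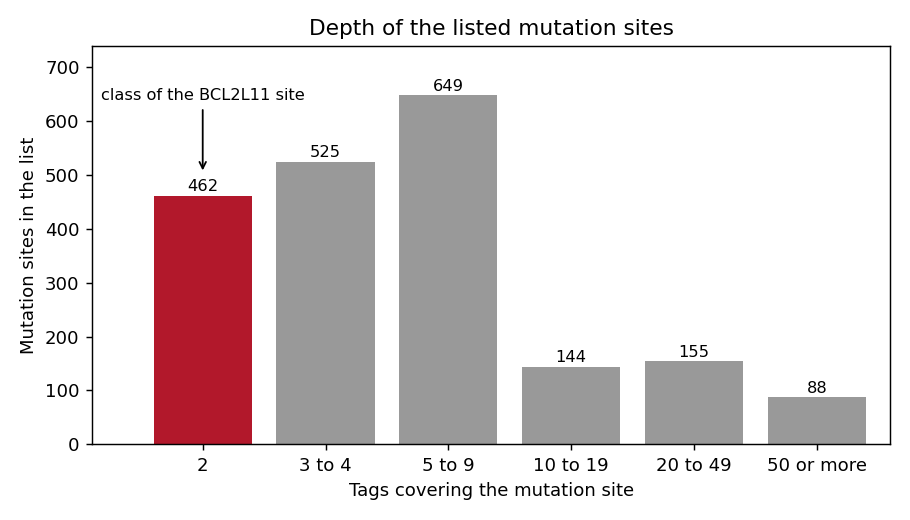
Number of mutation sites in the list (vertical axis) by the number of tags covering the site (horizontal axis), with the class that holds the BCL2L11 site in red. The 462 sites covered by 2 tags form the shallowest class, and 88 sites were covered by 50 tags or more.

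The BCL2L11 site stood alone. The nearest listed site on its strand was a truncation site 1.33 Mb to the 5′ side, with 8 truncated tags against 0.25 expected. On the 3′ side a truncation site with 5 tags and a mutation site with 2 mutated of 9 covering tags followed, both at 1.54 Mb. The nearest mutation site on the 5′ side was 9.39 Mb away. By comparison, the median listed site had another on its strand within 9.2 kb, and the median was 24.1 kb for mutation sites and 108 kb for those with 2 covering tags, both mutated. A distance above 1 Mb occurred at 545 of the 6754 sites (8.07%) and at 58 of the 462 sites of that shallow class (12.6%). Distances above 1 Mb were thus infrequent but not confined to BCL2L11. The share at 1.33 Mb or more was not computed.

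The opposite strand of the same windows, counted in the same way, held 0 sites. The density on the gene strand was 0.292 sites per 100 kb of window. As a background, the nuclear chromosomes were laid out end to end in tiles as long as each window, strand by strand, and the share of tiles with a listed site was counted. That share was 3.21% for tiles of BCL2L11 length. For the genes without a site it was 1.05% for MKNK2, 3.78% for RPS6KB1, 3.89% for BIN1, 3.82% for BCL2L1, 0.432% for MCL1, 2.31% for CASP9 and 4.31% for SLC39A14. Tiles cover all sequence, genes or not, and were not limited to transcribed sequence. Per gene, joining sites at most 1000 nt apart on a strand into loci gave 26.1 loci per 100 protein-coding genes over the nuclear chromosomes, against 1 locus for these 8 genes, or 12.5 per 100. The share of genes with a site cannot be read from loci, since a gene can hold several and a locus can lie outside coding genes. The 26.1 also counts loci on either strand, while the 12.5 counts gene-strand loci inside the windows alone. With unlike measures, 8 genes and 1 site, the difference was not tested.

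MKNK2 was the gene with the nearest listed site outside its window on its own strand. That site lay 27.2 kb to the 5′ side and was itself a mutation site with 2 of 2 tags mutated. Within 100 kb the gene strand held 2 truncation sites and 1 mutation site, and the opposite strand 1 truncation site. RPS6KB1, the other kinase gene, had its nearest site on the gene strand 53.3 kb to the 5′ side, a truncation site with 7 tags against 0.33 expected, with 1 mutation site also inside 100 kb. The nearest opposite-strand site was 186 kb away. Both kinase genes thus had sites in their surroundings and none in the window.

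BIN1 and SLC39A14 had no listed site within 100 kb on either strand. For BIN1, the nearest gene-strand site was a truncation site 182 kb to the 5′ side, with 8 tags against 0.25 expected, and the nearest opposite-strand site was 3240 kb away. For SLC39A14, the distances were 181 kb (a truncation site with 5 tags against 0.13 expected, on the 3′ side) and 190 kb.

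In the BCL-2 family, MCL1 had listed sites within 100 kb on its own strand and BCL2L1 had none. For both genes the nearest listed site lay on the opposite strand. MCL1 had 2 truncation sites within 100 kb on its own strand, the nearer 44.1 kb to the 5′ side with 6 tags against 0.11 expected, and 1 mutation site on the opposite strand 15.6 kb away. BCL2L1 had no gene-strand site within 100 kb, the nearest being 378 kb to the 3′ side, but 7 truncation and 3 mutation sites on the opposite strand within 100 kb, the nearest at 16.7 kb. BCL2L11 had none on its own strand outside the window within that distance and 2 mutation sites on the opposite strand, the nearer 99.8 kb away and covered by 35 tags. CASP9 had its nearest gene-strand site 283 kb to the 5′ side, a truncation site with 9 tags against 0.7 expected, and 1 opposite-strand truncation site 62.7 kb away. Over the 8 genes, 3 had a gene-strand site outside the window within 100 kb (7 sites in all), and 5 had an opposite-strand site there (15 sites). Of all tiles of 200 kb, the length of both flanks together, 11.0% held a site on a given strand; the tiles cover sequence with and without genes, and the same share around all genes was not computed. BCL2L1 alone gave 10 of the 15 opposite-strand sites, and without it the strands held 7 and 5.

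**Figure D2:**
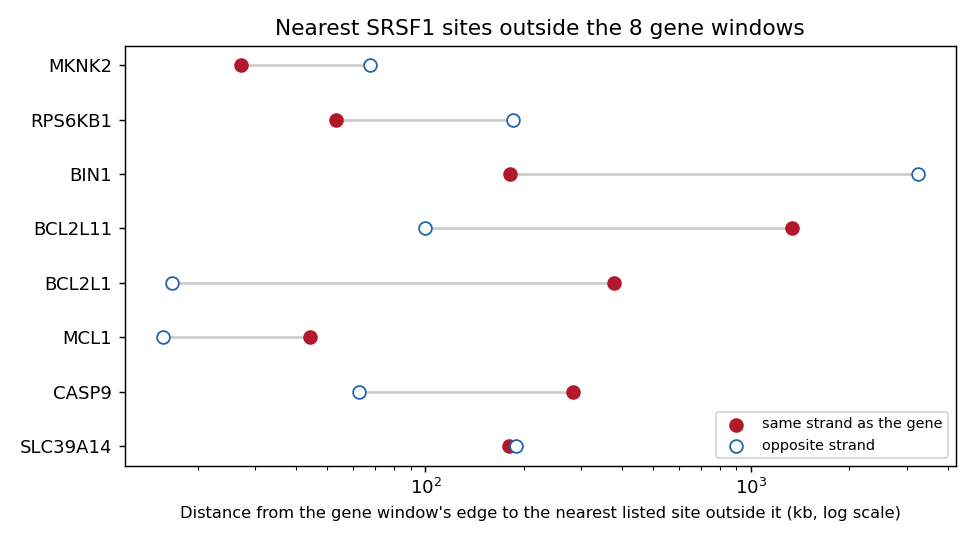
Distance in kb, on a log scale, from the edge of each gene's window (rows) to the nearest listed site outside it on the gene's strand (filled red) and on the opposite strand (open blue). Gene-strand distances ran from 27.2 kb for MKNK2 to 1330 kb for BCL2L11.

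The names of truncation sites also hold the number of the tag cluster they lie in, and these numbers never decreased along a chromosome strand. The numbers of the truncation sites on either side of a gene therefore limit how many clusters were numbered in and around it, none of which held a listed truncation site. For MKNK2, 382 clusters were numbered over the 288.2 kb between the flanking truncation sites, or 133 per 100 kb, against 26.7 per 100 kb along the whole chromosome strand. SLC39A14 had 330 over 692.2 kb, or 47.7 against 7.29, and MCL1 had 108 over 394.9 kb, or 27.3 against 9.43. These 3 genes thus lay in stretches with 4.98, 6.54 and 2.9 times the cluster density of their chromosome strand. The other 5 lay in stretches below it, at 0.485 (RPS6KB1) to 0.839 times (BCL2L11). BIN1 had 314 clusters over 6293 kb (4.99 against 7.26 per 100 kb) and CASP9 had 342 over 5289 kb (6.47 against 9.43). RPS6KB1 had 125 over 1314 kb (9.51 against 19.6), and BCL2L1 had 239 over 2372 kb (10.1 against 12.5). BCL2L11 had 199 over 2865 kb (6.95 against 8.28). How many of these clusters lay inside a window is not given by the list. The stretches also differ in length from gene to gene. They were shortest for the 3 genes above their chromosome strand (288.2 to 692.2 kb) and longer for the other 5 (1314 to 6293 kb). A difference between the genes therefore cannot be told apart from stretch length.

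**Figure D3:**
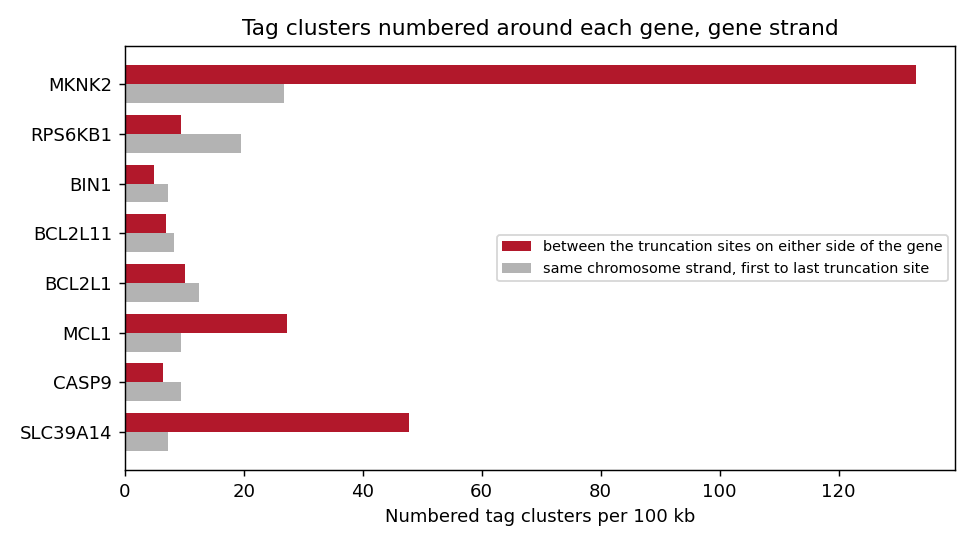
Numbered tag clusters per 100 kb on the gene's strand, between the listed truncation sites on either side of each gene (red) and along the whole chromosome strand from its first to its last truncation site (grey). MKNK2, SLC39A14 and MCL1 lay in stretches above their chromosome strand, at 133, 47.7 and 27.3 clusters per 100 kb, and the other 5 genes below it. The stretches of MKNK2, SLC39A14 and MCL1 were also shorter than those of the other 5.

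The letters around the BCL2L11 site could not be read, since no hg19 sequence was used. The coding sequences of the 8 genes were searched instead for 2 purine motifs of the kind SRSF1 is known to bind, GGAGA and GAAGAA, on the coding strand alone and with overlapping matches counted. The longest complete coding sequence of each gene in GENCODE v29 (GRCh38) was used. All 8 genes held GGAGA and 4 held GAAGAA (RPS6KB1, BIN1, SLC39A14 and MKNK2). Among 19481 coding genes, 87.7% held GGAGA and 65.7% held GAAGAA, so holding a motif does not set these genes apart. No other stretch of 60 bases in the same coding sequence holds more motif bases than the one printed below. Where stretches starting at neighbouring bases tied, the middle of the first such run was taken. They are shown for BCL2L11, which had the listed site, and for 3 genes without one. Motif bases are in capitals, 5′ to 3′.
BCL2L11: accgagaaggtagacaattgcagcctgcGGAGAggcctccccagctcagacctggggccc
BCL2L1: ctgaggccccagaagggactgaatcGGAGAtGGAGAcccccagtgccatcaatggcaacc
BIN1: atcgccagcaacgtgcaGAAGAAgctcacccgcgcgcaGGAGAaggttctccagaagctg
MKNK2: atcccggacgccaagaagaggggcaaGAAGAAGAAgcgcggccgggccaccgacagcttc
They cover coding bases 38 to 97 of BCL2L11, 104 to 163 of BCL2L1, 40 to 99 of BIN1 and 166 to 225 of MKNK2, counted from the first base of the start codon. The BCL2L1 stretch holds GGAGA in 2 copies 1 base apart. The MKNK2 stretch holds 2 overlapping copies of GAAGAA. BCL2L11, with the listed site, had 1 match in its stretch. So had MCL1 and CASP9, which had no site and are not printed. The RPS6KB1 stretch, also not printed, held 2 matches, and no stretch was taken for SLC39A14.

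Per kb of coding sequence, the 8 genes had a median of 4.88 matches of the 2 motifs together, against 3.39 over all coding genes (quartiles 2.08 and 5.03). BCL2L1 had the highest density, 5.72 per kb from 4 matches. BIN1 followed with 5.06 from 9 matches, BCL2L11 with 5.05 from 3 matches, MKNK2 with 5.02 from 7 matches and SLC39A14 with 4.74 from 7 matches. MCL1 had 3.81 per kb and RPS6KB1 3.17. CASP9 had the lowest density of the 8, 1.58 per kb from 2 matches. The gene with a site and the genes without one thus overlapped in motif density. Whether the BCL2L11 site lies in the searched coding sequence is not known, so these densities do not describe the site. A match is a description of the letters and not a binding site.

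**Figure D4:**
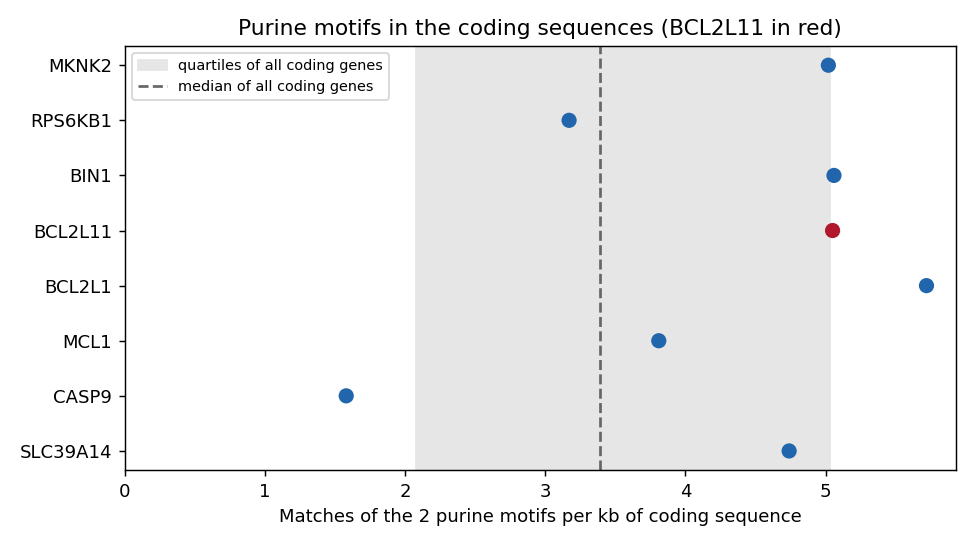
Matches of GGAGA and GAAGAA per kb of coding sequence (horizontal axis) for each gene, with the median (dashed) and quartiles (grey band) of all coding genes. BCL2L11 (red, 5.05 per kb) lay among the genes without a listed site, which ran from 1.58 for CASP9 to 5.72 for BCL2L1.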

How the data were processed

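SRSF1 HITS-CLIP was made from 2 samples of H1299 cells. The submitters' processing notes name cutadapt, without a version, BWA 0.7 and the hg19 build. Calling settings and the handling of PCR duplicates were not given in the sources used here. For both replicates together, the authors deposited 1 list with a whole-number tag count per site. That count equalled the truncated or mutated tags in the site's name in all 6754 lines. The deposited names hold, in other fields, the tag cluster, expected tags and covering tags, read here by the naming of the CTK toolkit.

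Sites were assigned to the 8 windows by midpoint and strand (Python 3.11.15, pandas 2.3.3), and the counting was tested on simulated data. All 8 genes of the rule are named. The genes, lists and the motif search were chosen with earlier results of these data known. The annotation at hand is GRCh38, so it gave names, lengths, gene numbers and coding sequences only. Assignment to exons, motifs around sites and the planned list of further apoptosis genes were not run. Intervals for shares are exact Clopper-Pearson at 95% and cover counting error only.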

Additional observations from a re-analysis of the deposited data

How the results depend on the processing

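The number of sites in the windows (1), of genes with a site (1) and the density (0.292 per 100 kb) were the same when any overlap counted, when sites within 50 nt were merged, and within 1.5 times with windows extended by 1000 nt. The site, the gene and the density fell to 0 among sites above the median tag count of their kind and among truncation sites alone, and the sites and the density were 0 without BCL2L11. Wider extensions were chosen after seeing the data. Windows extended by 10000 nt still held 1 site in 1 gene. The extended windows of 4 genes held 8 sites when 100000 nt were added, 7 of them outside the original windows. The density was then 0.412 per 100 kb, and 34.8% of the sites on both strands lay on the gene strand. The gene-strand share rested on 1 of 1 site (100%, 95% interval 2.5 to 100%), and the share of truncation sites was 0% (0 to 97.5%), so neither limits much. With no truncation site in a window, the medians planned for them have no value. Leaving out a replicate was not possible, since the list does not separate them. No paired analysis was possible because there was 1 group and both replicates share each line. The BCL2L11 site rests on 2 tags, and how far depth limits the 7 genes without a site is unknown.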
